A study of Homo sapiens with 12 samples.

Results

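The response of HepG2 cells to overexpression of CD146 was examined in 6 RNA-seq libraries of the 12 in the series, chosen by their treatment label. HepG2 is an established line from a human liver tumour. In 3 libraries the cells carried the vector pLVX alone, and in the other 3 they carried a vector with CD146, the product of the gene MCAM. All were grown in MEM with fetal bovine serum, sodium pyruvate and antibiotics. pLVX is the name of a family of lentiviral expression vectors. The promoter, the selection, the time after the vector was introduced and whether the cells were a pool or 1 clone are not given in the sources used here. Nothing in the labels says that the 3 libraries of a group are separate cultures, and p-values here speak only to the spread among the libraries, some of which may be technical.

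CD146 is an adhesion molecule of the immunoglobulin superfamily that spans the membrane once and binds the cytoskeletal ERM proteins (ezrin, radixin and moesin) with its cytoplasmic tail. It is best known on endothelial cells, pericytes and melanoma cells, where laminin α4, galectins, netrin 1 and Wnt5a have been described among its ligands, and where it acts as a co-receptor for the VEGF receptor KDR and for PDGFRB. It is not a typical protein of normal hepatocytes.

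The 3 pLVX libraries held 12.8M to 16.7M counts and the 3 CD146 libraries 13.3M to 16.9M (M, a factor of 1000000), in which 24377 to 26126 genes had at least 1 count. A count of 3, taken as the floor of detection, was worth 0.178 to 0.235 CPM (counts per M of the library), and this floor covers counting error only. Levels of single genes are CPM scaled with TMM factors, which corrected the library totals by 0.9694 to 0.9792 with pLVX and by 1.021 to 1.029 with CD146, while summed levels of markers and shares of counts are unscaled. All 10 hepatocyte markers were far above the floor, and their summed level was 57638 to 59582 CPM with pLVX and 52404 to 53182 CPM with CD146. The 11 cholangiocyte markers summed to 944 to 1046 and 1271 to 1307 CPM, with KRT7, CFTR and AQP1 at 3 counts or fewer in every library. The 10 stellate cell markers summed to 33.9 to 35.1 and 42.0 to 50.6 CPM. The 11 endothelial markers summed to 8.05 to 10.5 and 7.47 to 7.96 CPM. Of these, CDH5, KDR, TEK, TIE1, EMCN, ERG and LYVE1 had 3 counts or fewer in each library, and PECAM1 was the most abundant in both groups together (46 to 71 counts). The 8 leukocyte markers summed to 1276 to 1342 and 993 to 1061 CPM, nearly all of it from LYZ, while PTPRC had 0 to 4 counts. In bulk RNA, fewer cells of a type and less RNA per cell cannot be told apart.

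MCAM had 22.9, 23.5 and 23.7 CPM (pLVX) and 1946, 1954 and 1897 CPM (CD146), so the overexpressing libraries were far above the control libraries and close to each other (log2 fold change 6.37 with SE 0.04 and adjusted p = 5.55e-67). All adjusted p-values are from edgeR's quasi-likelihood test with Benjamini-Hochberg adjustment. The gene is at chr11:119308529-119321521 (GRCh38, minus strand) and overlaps CBL, and the counts do not separate the introduced copy from the cell's own. For any single value the exact permutation test of 3 against 3 libraries cannot go below p = 0.1, which MCAM reached (2-sided).

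Of 15300 genes tested, 3037 (19.8%) changed at an adjusted p under 0.05, 1461 (9.55%) upward and 1576 (10.3%) downward. Most changes were small. The median log2 fold change was 0.34 among genes that rose and -0.21 among genes that fell, and only 255 genes (1.67%) changed at least 2-fold, 190 of them (1.24%) upward and 65 (0.425%) downward. The groups were apart, with no overlap of their 3 values, for 33.6% of genes, 16.5% upward and 17.1% downward. The balance of directions depended on the scaling. By TMM 48.1% of calls were higher, by unadjusted library totals 79.5% were higher (2756 higher and 711 lower), and by limma on log2(FPKM + 1) 76.0% were higher (1563 and 493). Library totals moved the median of all genes from 0.002 to 0.074 on the log2 scale. All log2 fold changes below, of any size, are therefore relative to the typical gene, and small ones depend most on the scaling. List counts that move by over 1.5 times with this choice are given with both values. Counts of called list members are to be read beside the shares of all genes (9.55% upward and 10.3% downward). The share of counts from mitochondrially encoded genes was 12.7 ± 0.22% with pLVX and 11.5 ± 0.292% with CD146 (SD, n = 3).

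**Figure D1:**
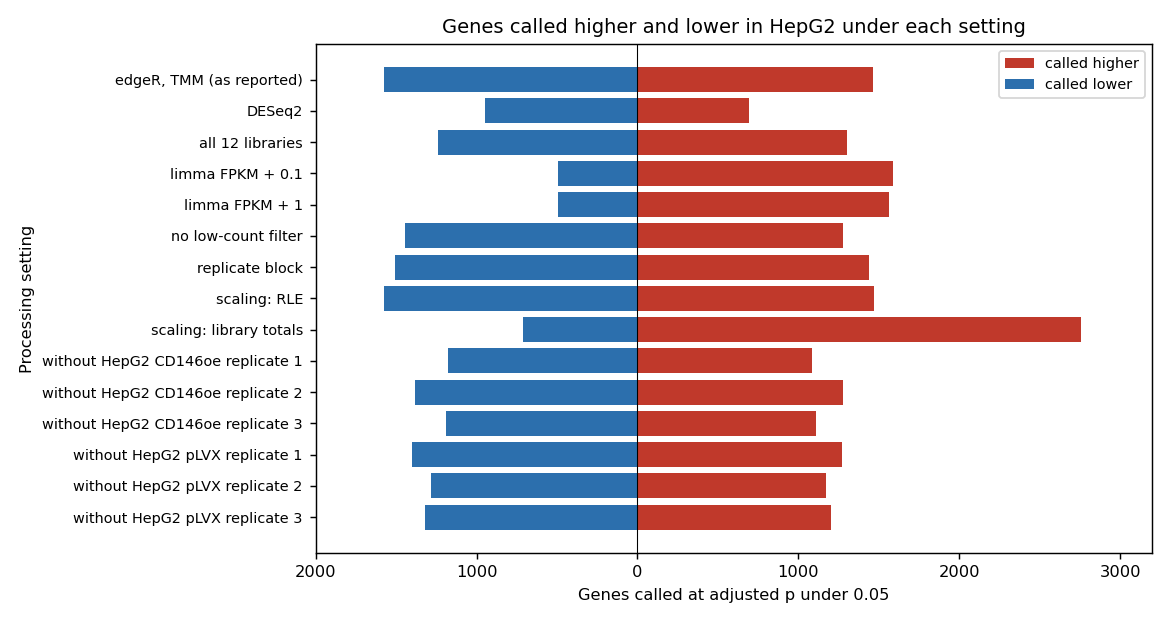
Genes called higher (right, red) and lower (left, blue) at an adjusted p under 0.05 under each processing setting in HepG2, on a linear axis from 0. edgeR with TMM calls 1461 higher and 1576 lower, while library totals (2756 and 711) and limma on FPKM tilt the calls upward and leaving out any 1 library keeps the balance near that of all 6.

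Genes were ranked here among called protein-coding genes with no overlap of groups and at least 5 CPM in the group where they were higher. The largest rise by ratio after MCAM was that of an amino acid transporter. SLC6A14, a broad transporter of neutral and basic amino acids, had 0.728, 1.77 and 1.31 CPM (pLVX) and 13.1, 12.5 and 12.4 CPM (CD146) (log2 fold change 3.25 with SE 0.17 and adjusted p = 2.45e-22). DKK1, a secreted inhibitor of Wnt signalling, had 10.4, 10.8 and 11.7 CPM (pLVX) and 60.8, 60.5 and 55.4 CPM (CD146) (log2 fold change 2.42 with SE 0.07 and adjusted p = 2.17e-33). For both genes each overexpressing library was above each control library by a wide margin. CCDC170, a coiled-coil protein of the Golgi, rose from 1.88 ± 0.213 to 13.4 ± 1.01 CPM (log2 fold change 2.82 with SE 0.15 and adjusted p = 3.72e-22). PAM, which amidates peptide hormones, had 8.09, 8.19 and 8.32 CPM (pLVX) and 28, 29.6 and 28.3 CPM (CD146) (log2 fold change 1.8 with SE 0.09 and adjusted p = 1.08e-23). BAZ2B, a bromodomain protein, rose from 2.69 ± 0.642 to 10.5 ± 1.63 CPM. PSD3, an exchange factor for ARF6, rose from 4.1 ± 0.296 to 13.5 ± 0.0712 CPM, and ANXA3, a calcium-dependent phospholipid-binding annexin, rose from 2.41 ± 0.522 to 7.8 ± 0.828 CPM. The 15 largest rises by this rule also held DSC3, EREG, AREG, NTN4, LAMA3, GBP1 and KRT23, described below with their groups. Another was DDX60, an interferon-inducible helicase (from 1.98 ± 0.206 to 5.97 ± 0.863 CPM). By difference in CPM rather than by ratio, the fibrinogen chains FGG and FGA, reelin (RELN, from 705 ± 13 to 908 ± 15.9 CPM), SPTBN1, MDM2, MAN1A1, SPP1 and ACTG1 gained most. FGA was not called when all 12 libraries were fitted together.

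The largest fall by ratio, among protein-coding genes of at least 5 CPM in the higher group, was that of FAM20A (-2.58). It is described below with its chromosomal neighbours, as is SLC16A6 (-1.23). PTPRJ, a receptor tyrosine phosphatase that dephosphorylates growth factor receptors, had 23, 21.1 and 22.6 CPM (pLVX) and 3.67, 3.61 and 5.2 CPM (CD146) (log2 fold change -2.39 with SE 0.11 and adjusted p = 3.99e-24). BAAT, which conjugates bile acids to glycine and taurine, had 6.07, 6.79 and 7.89 CPM (pLVX) and 2.45, 2.29 and 2.72 CPM (CD146) (log2 fold change -1.47 with SE 0.17 and adjusted p = 5.14e-10). G6PC1, the catalytic subunit of glucose-6-phosphatase, had 54.4, 50.02 and 57.5 CPM (pLVX) and 23.5, 19.4 and 23.4 CPM (CD146) (log2 fold change -1.28 with SE 0.07 and adjusted p = 2.28e-22). In none of the 3 did the groups overlap. PLG (plasminogen) fell from 24.9 ± 3.33 to 9.3 ± 0.397 CPM, DLK1, a fetal liver antigen, fell from 79.1 ± 3.09 to 37.2 ± 1.72 CPM, and TNFSF4, the OX40 ligand, fell from 7.68 ± 1.2 to 2.92 ± 0.123 CPM. PTPRN2, a phosphatase-like protein of secretory granules, fell from 19 ± 0.914 to 7.54 ± 0.90 CPM. SERPINA12, LGALS2, TEX19, ADGRL1, the chemokine CCL16 and the actin-binding COTL1 fell by 0.89 to 1.08 on the log2 scale. By difference in CPM the largest fall was that of albumin (ALB), with 22401, 21372 and 22188 CPM (pLVX) and 15214, 15350.0 and 14886 CPM (CD146) (log2 fold change -0.54 with SE 0.03 and adjusted p = 2.21e-23). AFP, FN1 and A2M followed among nuclear genes.

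**Figure D2:**
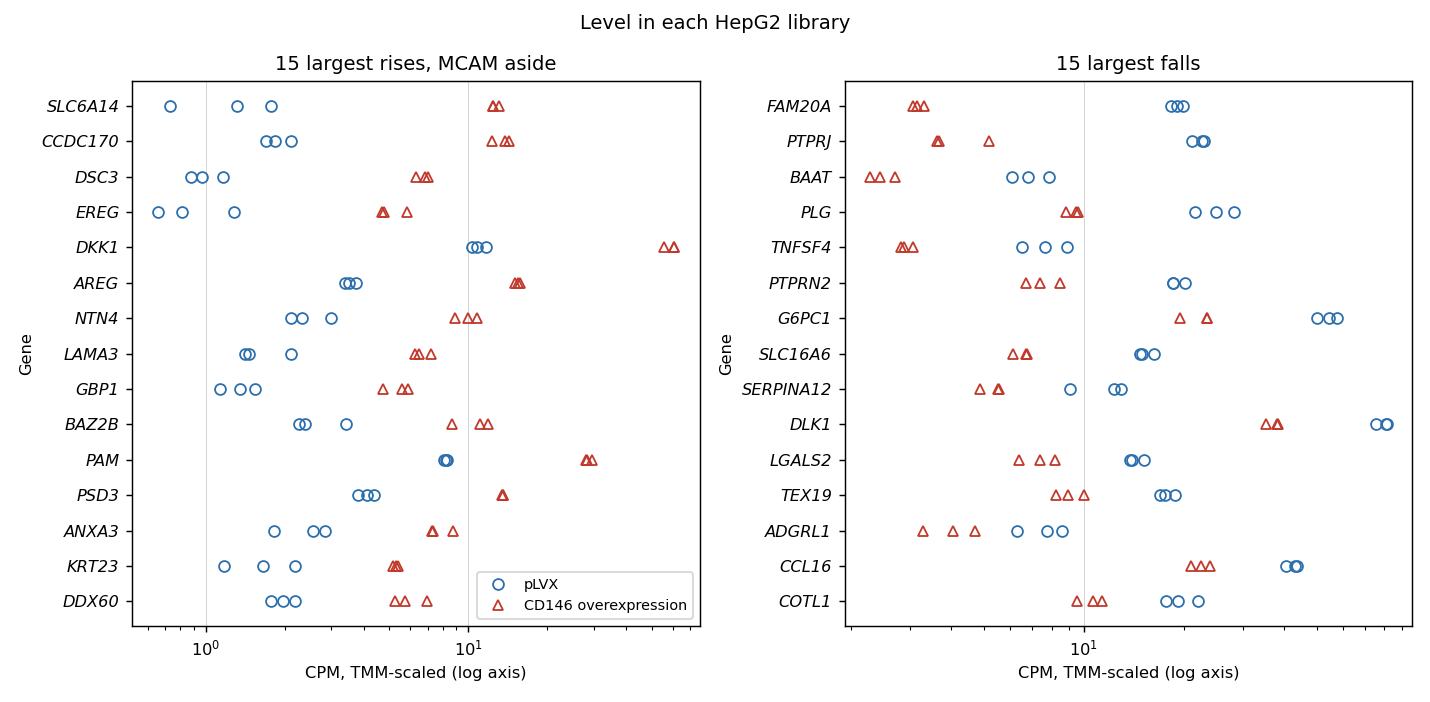
Level of the 15 genes with the largest rises, MCAM aside (left), and the 15 with the largest falls (right) in each of the 6 HepG2 libraries, in TMM-scaled CPM on a log axis. Circles are pLVX libraries and triangles are CD146 libraries, and for every gene drawn the 3 circles lie apart from the 3 triangles, which the rule for choosing them required.

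Of 5 ligands of the EGF receptor family that could be tested 3 rose, while the receptor itself was not called. AREG (amphiregulin) had 3.4, 3.73 and 3.5 CPM (pLVX) and 15.7, 15.4 and 15 CPM (CD146) (log2 fold change 2.11 with SE 0.12 and adjusted p = 1.90e-20). EREG (epiregulin) had 0.809, 1.28 and 0.657 CPM (pLVX) and 5.86, 4.79 and 4.68 CPM (CD146) (log2 fold change 2.43 with SE 0.23 and adjusted p = 2.54e-12). TGFA, another EGFR ligand, rose from 24 ± 1.87 to 38.1 ± 2.26 CPM. HBEGF (0.41) and NRG4 (-0.09) were not called. EGFR was at 36.6 ± 0.905 CPM with pLVX and 36.6 ± 1.49 CPM with CD146 (log2 fold change -0.01, not called), ERBB2 rose slightly (0.14), ERBB3 fell slightly (-0.13, not called with library totals or by limma on FPKM), and the feedback inhibitor ERRFI1 fell (-0.17). Of 10 tested members of this list 4 rose and 2 fell (1 fell with library totals), where 9.55% of all genes rose, and EGF, BTC, EPGN, NRG1, NRG2 and ERBB4 were too low to test.

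Among AP-1, immediate early and ERK feedback genes, 8 of 22 rose and 4 fell (5 rose by DESeq2; median 0.14, 0.22 with library totals, against 0.002 and 0.074 over all genes). AP-1 is the dimer of JUN and FOS proteins, and its subunit JUN had 13.6, 14.7 and 16.9 CPM (pLVX) and 33.6, 38 and 38.3 CPM (CD146) (log2 fold change 1.28 with SE 0.08 and adjusted p = 9.72e-20), with the groups apart. FOSL1 (0.62) rose too, and so did JUNB (0.65) and FOSL2 (0.35), neither of them called by DESeq2 and JUNB not without CD146 replicate 3 or pLVX replicate 2. FOS itself was not called (log2 fold change 0.96). The immediate early factors EGR1 (from 3.89 ± 0.722 to 7.81 ± 0.711 CPM) and KLF6 (from 53.6 ± 2.58 to 82.9 ± 2.73 CPM) rose too, as did PHLDA1 (0.53). The members that fell were feedback genes and targets of the ERK pathway. They were the phosphatase DUSP6 (from 43.6 ± 2.03 to 32 ± 2.76 CPM), SPRY4 (from 45.7 ± 3.7 to 33.7 ± 0.80 CPM) and the ETS factors ETV4 (-0.29) and ETV5 (-0.21, not called by limma on FPKM).

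Promoter windows of RefSeq (GRCh38.p14), from 250 bases before to 50 after each start, were available for 10551 of the 15300 genes. The AP-1 motif TGANTCA, read on both strands, was found in 4.4% of all of them, in 6.4% of those of genes that rose, in 5.6% of those that rose at least 2-fold and in 4.1% of those that fell. The cAMP response element TGACGTCA was found in 3.3%, 3.8%, 4.0% and 3.3% of the same sets. A match describes letters and does not show binding. The 3 windows printed here belong to genes among the largest rises that hold such a match, with the motif in capitals and 5′ to 3′ on the strand of the gene, which is the plus strand for each. The AREG window is at chr4:74445060-74445089, the LAMA3 window at chr18:23872940-23872969 and the SLC6A14 window at chrX:116436379-116436408, and their motifs begin 65, 69 and 216 bases before the start.
AREG, cAMP response element: cggccgggcctTGACGTCAtgggctgcggc
LAMA3, AP-1 motif: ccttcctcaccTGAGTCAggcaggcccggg
SLC6A14, AP-1 motif: ctacacagctcTGAGTCAaaggctgtcagt

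Other signalling pathways moved in parts. HepG2 is known to carry an activated β-catenin. Of 15 Wnt feedback and target genes 2 rose (1 without CD146 replicate 2, 4 with library totals) and 2 fell, close to the shares of all genes (9.55% and 10.3%). DKK1 had by far the largest change in this list. The classical feedback genes AXIN2 (0.07), LGR5 (-0.07), NKD1 (-0.07) and RNF43 (0.08) were not called. Of 19 YAP/TAZ targets, 8 rose and 3 fell (1 by DESeq2, with library totals and without pLVX replicate 1 or 2), with the matricellular CCN1 (0.55), AMOTL2 (0.52), GADD45A (0.51) and PTPN14 (0.39) up. CCN2, a classical target, fell from 275 ± 3.21 to 209.8 ± 4.8 CPM. In the TGF-β, BMP and activin list 5 of 17 rose (3 without CD146 replicate 1) and 4 fell (2 with library totals). FSTL3, an activin antagonist, rose from 23.6 ± 1.63 to 44.4 ± 0.357 CPM, and INHBE, a hepatic activin subunit, rose from 14.3 ± 1.15 to 28.1 ± 1.65 CPM. BMP4 fell from 86.5 ± 4.66 to 58.3 ± 1.94 CPM.

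Inflammatory and interferon genes rose in part. In the NF-κB list 7 of 19 rose (4 without pLVX replicate 3 and 4 by DESeq2; median 0.24) and 1 fell (0 with library totals and without CD146 replicate 3). The chemokine CXCL8 had 0.89, 0.795 and 0.803 CPM (pLVX) and 1.61, 2.21 and 2.95 CPM (CD146) (log2 fold change 1.45 with SE 0.30 and adjusted p = 1.92e-04), and the ubiquitin ligase BIRC3 had 2.67, 3.97 and 3.5 CPM (pLVX) and 8.37, 5.97 and 8.84 CPM (CD146). The more abundant chemokine CCL20 fell from 90.9 ± 0.682 to 80.9 ± 5.54 CPM (not called with library totals, by limma on FPKM or without CD146 replicate 3). The inhibitors NFKBIA (0.26) and TNFAIP3 (0.24) rose, whereas ICAM1 (0.02), SOD2 (0.02) and RELA (0.12) were not called. Among interferon-stimulated genes, 11 of 29 rose and 2 fell (1 without CD146 replicate 3, by DESeq2 and with library totals; median 0.26). GBP1, a guanylate-binding GTPase, had 1.13, 1.35 and 1.53 CPM (pLVX) and 5.6, 5.9 and 4.74 CPM (CD146) (log2 fold change 1.99 with SE 0.21 and adjusted p = 2.96e-11). GBP2 (1.38), SAMD9 (1.46), IFIT2 (0.74), PARP14 (0.86) and the factor IRF1 (0.66) rose as well. The classical members ISG15 (0.32), MX1 (0.17) and IFIT1 (0.11) were not called, and IFITM3 fell from 71.3 ± 2.52 to 51.3 ± 2.94 CPM. Of 15 genes of MHC class I presentation 1 rose and 3 fell (1 with library totals), a share close to that of all genes, and the HLA genes are uncertain because of their similar copies.

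Of the known partners of CD146, 2 of 5 tested rose (1 by DESeq2) and 1 fell (0 by DESeq2 and with library totals). Ezrin rose slightly (EZR, from 98.5 ± 0.395 to 117 ± 2.92 CPM), and so did galectin 1 (LGALS1, 0.27, not called by DESeq2 or without CD146 replicate 2). PDGFRB fell (-0.39), but was not called by DESeq2 or limma, with library totals, with all 12 libraries, or without CD146 replicate 3 or pLVX replicate 1 or 2. Galectin 3 (LGALS3, 0.03) and radixin (RDX, -0.06) were not called, and WNT5A, LAMA4, NTN1, KDR and moesin (MSN) were too low to test. In the basement membrane list 7 of 15 rose and 2 fell. NTN4, a netrin that binds laminins, had 2.99, 2.32 and 2.12 CPM (pLVX) and 10.7, 8.92 and 10.00 CPM (CD146) (log2 fold change 2.01 with SE 0.15 and adjusted p = 1.00e-15). LAMA3, the α chain of laminin 332, had 1.46, 1.41 and 2.12 CPM (pLVX) and 6.24, 6.49 and 7.22 CPM (CD146) (log2 fold change 2.01 with SE 0.19 and adjusted p = 1.30e-12). For both genes the groups were apart, at low levels. The neighbouring type IV collagen genes COL4A5 (from 25.5 ± 1.51 to 68.3 ± 1.67 CPM) and COL4A6 (from 5.66 ± 0.639 to 16.8 ± 1.98 CPM) and LAMA1 (from 0.316 ± 0.147 to 1.04 ± 0.252 CPM, not called by limma on FPKM) rose. Nidogen 1 (NID1, -0.32) and the laminin chain LAMB1 (-0.30) fell.

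Several genes of epithelial junctions and keratins rose. The desmosomal cadherin DSC3 had 0.971, 1.16 and 0.876 CPM (pLVX) and 7.02, 6.34 and 6.82 CPM (CD146) (log2 fold change 2.72 with SE 0.21 and adjusted p = 6.32e-16). DSC2 (0.32), plakophilin 2 (PKP2, 0.19), plakoglobin (JUP, 0.41) and PERP (0.20) rose as well. In all 5 of 13 members of the cadherin and desmosome list rose (8 with library totals) and N-cadherin alone fell (CDH2, from 235 ± 3.1 to 189 ± 3.62 CPM). E-cadherin (CDH1, -0.09) and β-catenin (CTNNB1, -0.03) were not called. Of 18 tight junction genes 4 rose (2 without CD146 replicate 1), with CLDN1 in front (from 179 ± 3.55 to 248 ± 12.7 CPM). Among keratins and vimentin 5 of 8 rose (3 without pLVX replicate 3). KRT19, a keratin of bile duct cells, had 28.5, 26.5 and 27.5 CPM (pLVX) and 74.4, 65.7 and 75.1 CPM (CD146) (log2 fold change 1.39 with SE 0.06 and adjusted p = 4.90e-26). KRT23 rose from 1.67 ± 0.509 to 5.29 ± 0.124 CPM and KRT80 rose from 0.47 ± 0.243 to 1.97 ± 0.149 CPM. Of the keratin pair of hepatocytes KRT8 rose slightly (from 399 ± 17.1 to 432 ± 10.2 CPM, not called without CD146 replicate 3 or pLVX replicate 3) and KRT18 (0.07), which overlaps it, was not called, nor was vimentin (VIM, -0.24). The summed cholangiocyte markers moved the same way, as given above, with KRT19, EPCAM (from 164 ± 3.52 to 212 ± 6.02 CPM), SPP1 and SOX9 up and KRT7 near 0, and their part in these values was not tested.

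The actin list held 10 rises and 1 fall (0 with library totals) among 23 genes. Transgelins led it, with TAGLN (from 14.5 ± 1.49 to 21.4 ± 1.38 CPM) and TAGLN2 (from 8.11 ± 0.394 to 12.6 ± 0.991 CPM), and the tropomyosins TPM1 (0.32) and TPM4 (0.19), RHOB (0.33) and ACTG1 (0.16) followed. Of 21 integrin and focal adhesion genes 5 rose (3 without CD146 replicate 1, 8 with library totals) and 3 fell (1 by DESeq2 and without CD146 replicate 3, 0 with library totals), by small steps such as zyxin (ZYX, 0.31) and vinculin (VCL, 0.23). Of 9 tested mesenchymal genes and EMT factors 1 rose (2 without CD146 replicate 2 and with library totals) and 1 fell. SPARC, a matricellular protein, rose from 50.4 ± 3.09 to 111 ± 6.01 CPM and fibronectin fell (FN1, from 9689 ± 349 to 7927 ± 95.8 CPM). SNAI1, SNAI2 and ZEB1 were not called and TWIST1, TWIST2 and ZEB2 were too low to test. MMP14, a membrane-anchored matrix protease, rose from 3.48 ± 0.484 to 5.97 ± 0.821 CPM, and RECK, an inhibitor of it, rose from 4.44 ± 0.714 to 7.19 ± 0.295 CPM. Receptor tyrosine phosphatases changed in both directions, 4 up and 5 down of 11 (3 down without pLVX replicate 1 and with library totals). PTPRM, a homophilic adhesion phosphatase, rose from 47.1 ± 1.96 to 89.1 ± 3.17 CPM, against the falls of PTPRJ and PTPRN2 given above.

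**Figure D3:**
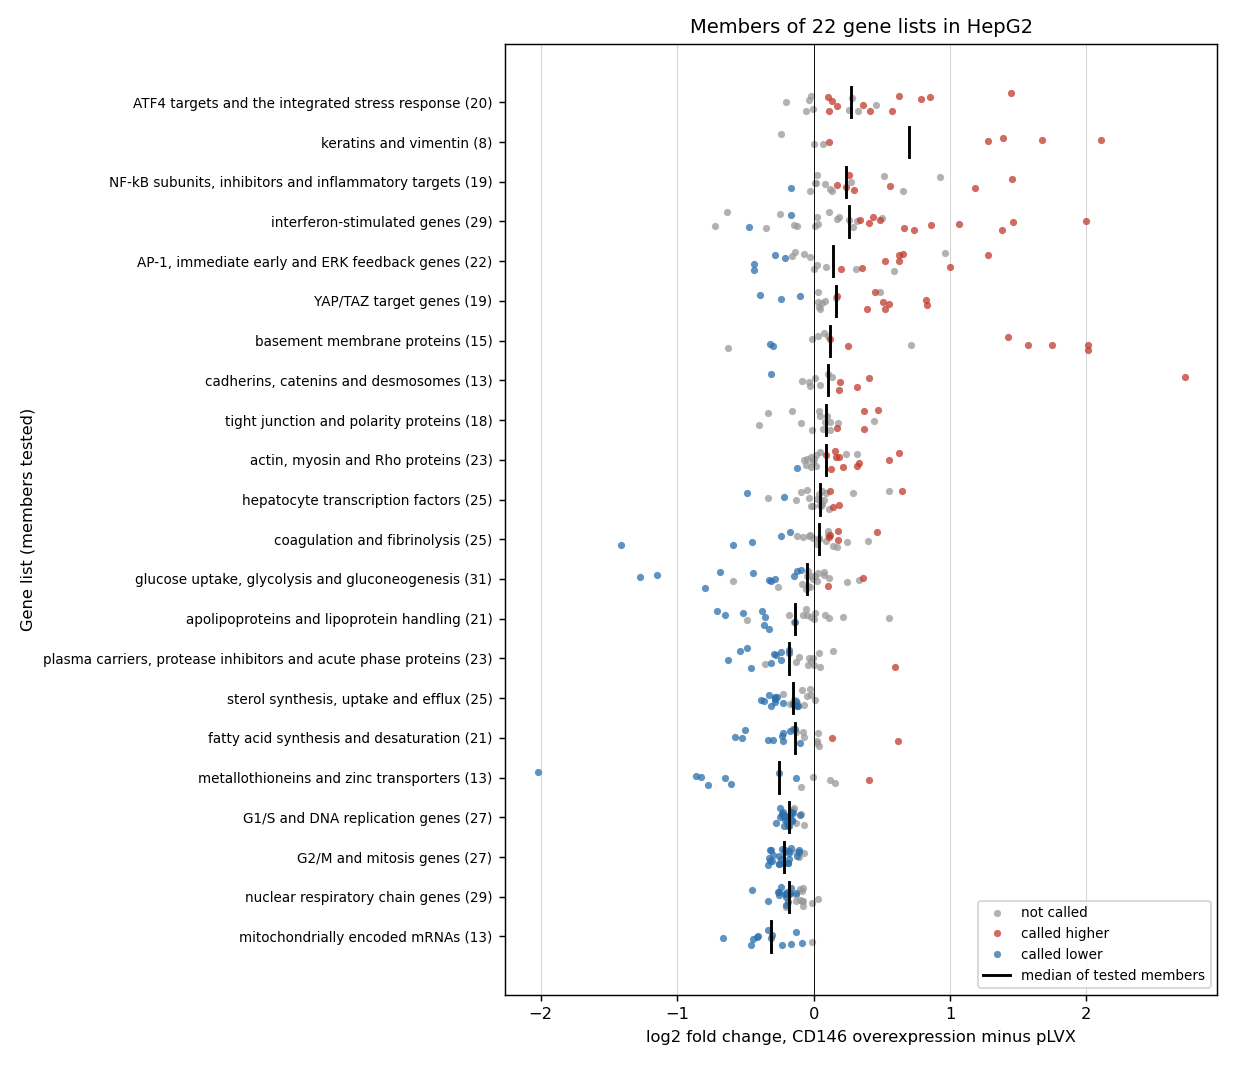
log2 fold change of each tested member of 22 gene lists, CD146 overexpression minus pLVX, with red points called higher, blue called lower, grey not called and a black bar at the median. The mitosis, replication and mitochondrial lists lie in a narrow band left of 0, and the keratin and basement membrane lists have a few members far to the right.

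Secreted products of hepatocytes fell in part, while most of the transcription factors of the liver, like most of all genes, were not called. Of 25 hepatocyte transcription factors 4 rose (2 by DESeq2, 7 with library totals) and 2 fell, where 9.55% of all genes rose and 10.3% fell. HNF4A (0.12, not called without CD146 replicate 3) and PROX1 (0.19) rose slightly. CEBPA (0.14) rose too, but was not called by DESeq2, with all 12 libraries, with no filter, or without CD146 replicate 1 or 3 or pLVX replicate 1 or 3. The retinoid receptor RXRA fell (-0.22, not called by limma on FPKM). FOXA1 (-0.05), FOXA2 (0.04) and CEBPB (-0.01) were not called, the xenobiotic receptor NR1I3 rose from 2.86 ± 0.18 to 4.5 ± 0.451 CPM (not called by DESeq2) and ONECUT2 fell from 76.5 ± 1.56 to 54.3 ± 3.13 CPM. In the list of plasma carriers, protease inhibitors and acute phase proteins 11 of 23 fell and 1 rose (3 with library totals; median -0.18, -0.11 with library totals). Besides albumin, transthyretin (TTR, from 33.4 ± 1.92 to 23.8 ± 0.781 CPM), haptoglobin (HP, from 233 ± 5.01 to 169.8 ± 5.86 CPM) and the inter-α-trypsin inhibitor chain ITIH1 (from 9.92 ± 0.617 to 6.48 ± 0.687 CPM) fell. Hemopexin rose (HPX, from 11.3 ± 0.347 to 17.1 ± 1.09 CPM), and transferrin (TF, -0.04) and α1-antitrypsin (SERPINA1, 0.0017) were not called. The whole list took 3.97 ± 0.0851% of counts with pLVX and 3.33 ± 0.022% with CD146 (SD, n = 3), and albumin alone 2.14 ± 0.0445% and 1.55 ± 0.0194%.

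Apolipoprotein genes fell in 8 of 21 cases and rose in 0 (1 without pLVX replicate 2, 3 with library totals). The unscaled share of counts of the whole list was 2.58 ± 0.028% with pLVX and 2.64 ± 0.0208% with CD146 (SD, n = 3). APOB made up most of it, at 19053 CPM with pLVX and 20174 CPM with CD146 before scaling. As the calls use TMM and the share does not, the share does not show whether the list as a whole fell. APOE fell from 553 ± 1.9 to 440.3 ± 7.82 CPM, APOA2 from 1765 ± 12.7 to 1369.8 ± 43.1 CPM and APOM from 192 ± 5.73 to 134 ± 3.6 CPM. The main structural apolipoproteins APOA1 (0.01) and APOB (0.01) were not called. Coagulation genes split evenly, 5 up (9 with library totals) and 5 down of 25, with plasminogen, kininogen (KNG1, from 21.2 ± 2.4 to 14 ± 1.63 CPM) and TFPI (-0.45) down and F12 (0.46) and the fibrinogens FGG (0.18) and FGA (0.12) up. FGB, the third fibrinogen chain, fell (-0.18). Of 19 complement genes 3 rose (1 by DESeq2, 6 with library totals) and 5 fell (3 without CD146 replicate 3 or pLVX replicate 3 and with library totals), with C4BPA (-0.45) and C3 (-0.27) down and C1S (0.30) up.

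Of 31 genes of glucose metabolism 11 fell (7 with library totals, 5 by limma on log2(FPKM + 1)) and 2 rose (1 by DESeq2 and without any single library other than CD146 replicate 1, 4 with library totals). Among enzymes of gluconeogenesis G6PC1 fell as given above, and so did PCK1 (from 20.3 ± 2.14 to 14.8 ± 0.0804 CPM) and the fructose bisphosphatase FBP1. PC (-0.05) and G6PC3 (-0.01) were not called, and PCK2, the mitochondrial form of PCK1, rose (0.10) but was not called by DESeq2, with all 12 libraries, with no filter, or without any single library other than CD146 replicate 1. FBP1, which overlaps the noncoding PCAT7, fell from 2.07 ± 0.556 to 0.92 ± 0.0943 CPM (log2 fold change -1.14 with SE 0.29 and adjusted p = 0.003) but was not called without pLVX replicate 3 or by DESeq2. The glucose transporter SLC2A1 (GLUT1) fell from 251 ± 2.31 to 145 ± 0.998 CPM. SLC2A2 (GLUT2) fell from 116 ± 8.17 to 95.2 ± 5.71 CPM (not called by limma on FPKM), while SLC2A3 (GLUT3) rose from 263 ± 5.63 to 337 ± 14.4 CPM. Among genes of glycolysis ALDOC (-0.69), PFKFB2 (-0.33), PKLR (-0.31), TPI1 (-0.12) and GAPDH (-0.09) fell. Of these only ALDOC was also called by limma on FPKM, and PKLR, TPI1 and GAPDH were not called with library totals. PKLR was not called by DESeq2, with all 12 libraries, or without CD146 replicate 1 or 2 or pLVX replicate 3, and GAPDH, which has processed copies, not with all 12 libraries or without CD146 replicate 1 or 2 or pLVX replicate 1. HK2 (0.08), LDHA (-0.05) and ENO1 (-0.04) were not called.

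Many genes of sterol and fatty acid synthesis fell by small steps. In the sterol list 15 of 25 fell and 0 rose (9 fell with library totals and 8 by limma on log2(FPKM + 1); median -0.15, -0.08 with library totals). They span the pathway, from HMGCS1 (-0.31) to FDFT1 (from 357 ± 10.03 to 272 ± 5.0 CPM), SQLE (-0.27) and LSS (-0.33). SREBF2 (-0.03), the main activator of these genes, was not called. Of 21 genes of fatty acid synthesis 12 fell (8 with library totals) and 2 rose (1 without any single library and by DESeq2). ELOVL6 (-0.58), ACSS2 (-0.52), SCD (-0.50), ACACA (-0.33) and FASN (-0.30) fell, and the acyl-CoA synthetase ACSL1 rose from 85.6 ± 4.38 to 132 ± 3.1 CPM. Among 23 genes of fatty acid oxidation 4 fell (2 with library totals) and 1 rose (0 without CD146 replicate 2 or pLVX replicate 2 and by DESeq2, 2 with library totals). The fatty acid binding protein FABP1 fell from 303 ± 9.27 to 194 ± 5.51 CPM.

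Genes of detoxification changed in both directions, while most genes of the metallothionein and zinc list fell. Among phase 1 and conjugating enzymes, CYP2J2, an arachidonic acid epoxygenase, had 1.62, 1.16 and 0.657 CPM (pLVX) and 3.02, 3.02 and 2.72 CPM (CD146) (log2 fold change 1.36 with SE 0.26 and adjusted p = 8.16e-05). CYP1A1, which oxidises aromatic hydrocarbons, rose from 12.5 ± 0.364 to 17.7 ± 0.599 CPM. Of 16 cytochrome P450 genes 3 rose and 2 fell, CYP3A7 (-1.18) and CYP2W1 (-0.29), where 9.55% of all genes rose and 10.3% fell. Of 17 conjugating enzymes 3 rose and 5 fell (3 with library totals), among the latter UGT2B10 (-0.51). UGT2B15 and UGT2B4 were called in opposite directions (-2.8 and 1.16). The UGT2B genes named here and the GSTA genes have near-identical copies and are uncertain. In the bile acid list 4 of 18 fell (2 without CD146 replicate 1 and by DESeq2) and 3 rose, with BAAT far in front of the others. Those that rose were CYP7A1 (0.48) and the export transporters ABCC3 (0.43) and SLC51A (0.39), while SLC51B (0.04) was not called. Metallothioneins, small zinc- and copper-binding proteins, fell as well. MT2A had 76.2, 88.6 and 73.2 CPM (pLVX) and 41.6, 41.4 and 48 CPM (CD146) (log2 fold change -0.86 with SE 0.06 and adjusted p = 9.60e-18). MT1E (-0.78), MT1F (-0.65), MT1G (-0.82) and MT1X (-0.60) fell to a like degree, but the MT1 genes are near-identical copies and uncertain. In the list of metallothioneins and zinc transporters 8 of 13 tested members fell (7 with library totals). SLC39A14 (-0.25) and, with TMM, SLC30A1 (-0.13) were among them, while the transporter SLC30A10 rose (0.40). Among genes of iron transport TMPRSS6, which restrains hepcidin, rose from 9.25 ± 2.16 to 16.5 ± 0.501 CPM and HAMP (-0.11) and TFRC (-0.07) were not called. Amino acid transporters rose in 6 of 21 cases, with SLC38A4 (from 2.38 ± 0.594 to 4.65 ± 0.728 CPM) and the cystine transporter SLC7A11 (0.47) after SLC6A14, and fell in 3 (1 with library totals). Those that fell were SLC38A2 (from 1178 ± 38.9 to 1049 ± 59 CPM), SLC7A2 (-0.16) and SLC6A6 (-0.15). None of the 3 was called by limma on FPKM, SLC7A2 and SLC6A6 were not called with library totals, and SLC6A6 was not called by DESeq2 or without CD146 replicate 1 or 3 or pLVX replicate 2.

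Some single genes known for growth arrest and the response to stress rose. CDKN1A (p21), which inhibits cyclin-dependent kinases, had 25, 27.1 and 23.8 CPM (pLVX) and 45.5, 41.6 and 43.7 CPM (CD146) (log2 fold change 0.78 with SE 0.06 and adjusted p = 1.39e-14). BTG2, an antiproliferative protein, had 18, 20.5 and 17.6 CPM (pLVX) and 32, 32.7 and 34.4 CPM (CD146). MDM2, a ubiquitin ligase, had 398, 406 and 409 CPM (pLVX) and 581, 556 and 555 CPM (CD146) (log2 fold change 0.48 with SE 0.03 and adjusted p = 1.90e-18). In all 3 genes the groups did not overlap. SESN2 (0.63), a sestrin that restrains mTORC1, the secreted stress cytokine GDF15 (0.62) and the death receptor FAS (0.53) rose as well.

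Proliferation genes fell by small steps that were alike across members. In the list of G2/M and mitosis genes 23 of 27 fell and 0 rose (16 fell with library totals and 12 by limma on log2(FPKM + 1); median -0.22, -0.14 with library totals). TOP2A, the decatenating topoisomerase, had 1069, 1057 and 1090.5 CPM (pLVX) and 863, 848 and 852 CPM (CD146) (log2 fold change -0.33 with SE 0.03 and adjusted p = 2.07e-13). The proliferation antigen MKI67 had 515, 518 and 509 CPM (pLVX) and 449, 447 and 426 CPM (CD146) (log2 fold change -0.22 with SE 0.03 and adjusted p = 1.22e-07). AURKB (-0.34), CENPA (-0.32), BUB1 (-0.31) and ASPM (-0.26) fell likewise, and CDC20 (-0.07) and CCNA2 (-0.11) were not called. Among genes of G1/S and DNA replication 21 of 27 fell and 0 rose (12 fell with library totals and 3 by limma on log2(FPKM + 1); median -0.18), with the factor E2F1 (-0.23) and the helicase subunit MCM3 (-0.22) as examples. Cyclin D1 (CCND1, -0.08), CDK4 (-0.06) and RB1 (0.06) were not called. In the list of D-type cyclins, CDK inhibitors and RB proteins, which leaves out CDKN1A, 1 of 12 rose (2 with library totals), CDK6 (0.16). The 3 that fell (1 with library totals) were RBL1 (-0.14), RBL2 (-0.16) and CDKN2D (-0.66).

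Promoters of mitosis genes are known for the cell cycle homology region (CHR, TTTGAA) beside CCAAT boxes. In windows of the same length as above the CHR letters were found, on either strand, in 15 of 22 mitosis genes with a window (68.2%). They were found in 9.8% of all genes, in 13.3% of genes that fell and in 8.7% of genes that rose. CCAAT was found in 18 of the 22 mitosis genes and in 37.1%, 43.0% and 33.2% of the other sets. The windows printed are those of 3 mitosis genes named above, with the CHR letters in capitals on either strand, 5′ to 3′ on the minus strand, on which all 3 genes lie. They are at chr17:40418030-40418059 (TOP2A), chr10:128126435-128126464 (MKI67) and chr1:197146765-197146794 (ASPM), and the motifs begin 151, 29 and 113 bases before the start.
TOP2A, CHR: ctgattggtttaTTCAAAcaaaccccggcc
MKI67, CHR: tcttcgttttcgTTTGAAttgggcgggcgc
ASPM, CHR: cggatgcaatcaTTCAAAtgaagcgccgcc

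Stress response genes moved apart from each other. Of 20 ATF4 targets 11 rose and 0 fell (1 without pLVX replicate 2; median 0.27). ATF3 had 4.05, 4.71 and 4.02 CPM (pLVX) and 12.4, 12.2 and 10.6 CPM (CD146) (log2 fold change 1.44 with SE 0.13 and adjusted p = 2.41e-13). PPP1R15A, which reverses the phosphorylation of eIF2α, rose from 14.6 ± 1.77 to 26.5 ± 0.302 CPM. DDIT3 (CHOP) rose from 11.5 ± 0.788 to 17.2 ± 2.0 CPM and TRIB3 rose from 53.6 ± 1.06 to 68.8 ± 1.59 CPM. The serine synthesis enzymes PHGDH (-0.06) and PSPH (-0.02) were not called. Of 21 genes of the unfolded protein response and endoplasmic reticulum chaperones 2 rose (1 without CD146 replicate 1 or any single pLVX library and by DESeq2, 8 with library totals) and 6 fell (1 with library totals). HSPA5 (0.05) and XBP1 (0.05) were not called. Among cytosolic chaperones 5 of 16 fell with TMM scaling (2 without pLVX replicate 1, 3 without CD146 replicate 1 or 3) and 0 with library totals. Of hypoxia-inducible genes outside glycolysis 6 of 16 rose (9 with library totals), with DDIT4 (from 36.5 ± 0.92 to 63 ± 1.99 CPM), BNIP3L (0.26) and VEGFA (from 156 ± 5.11 to 189 ± 3.74 CPM) as examples, and 1 fell (the matrix cross-linking LOX, from 26.8 ± 1.39 to 20.5 ± 1.86 CPM). HIF1A (0.08) was not called. In the NRF2 and redox list 9 of 22 fell and 4 rose (7 with library totals). The pentose phosphate enzymes TKT (-0.31) and PGD (-0.22) fell and GCLM (0.41) rose, with NQO1 (0.01) and HMOX1 (-0.02) not called.

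Mitochondrial transcripts were lower from both genomes. Of 13 mitochondrially encoded mRNAs 12 fell and 0 rose (median -0.31, -0.24 with library totals), and MT-CO3 had 9922, 9621 and 9821 CPM (pLVX) and 7153, 7459 and 6919 CPM (CD146) (log2 fold change -0.45 with SE 0.03 and adjusted p = 3.09e-19). MT-CO1, the exception, was at 26238 ± 1004 CPM with pLVX and 26021 ± 343 CPM with CD146 (log2 fold change -0.01, not called). Among the nuclear respiratory chain genes 17 of 29 fell (12 with library totals and 7 by limma on log2(FPKM + 1)) and 0 rose, by steps such as ATP5MC1 (-0.45), NDUFA1 (-0.33) and COX7A2 (-0.26). Of 27 mitochondrial ribosomal proteins 2 fell (1 to 4 with a library left out, 0 by DESeq2 and with library totals). Lysosomal genes fell in 11 of 23 cases (6 with library totals and 4 by limma on log2(FPKM + 1)), among them NPC2 (-0.29) and GLB1 (-0.25). Of cytosolic ribosomal proteins 10 of 30 fell (4 without CD146 replicate 1 and 6 without pLVX replicate 2). Of proteasome subunits 6 of 26 fell (2 without pLVX replicate 2 and 3 without CD146 replicate 1 or by DESeq2). In neither list was a fall called with library totals. For scale, of the 2017 protein-coding genes in the highest of 5 groups by level (from 96.3 CPM) 617 fell with TMM. Of the 2018 with the shortest transcripts (up to 2262 bases) 381 fell.

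Length and level moved with the direction of change, and their part in the small falls was not tested. When protein-coding genes of at least 5 CPM were cut into 5 equal groups by longest annotated transcript, 118 genes rose and 381 fell among the shortest (up to 2262 bases) and 309 rose and 241 fell among the longest (from 6052 bases). By level, 258 rose and 100 fell in the lowest group (5.0 to 14.8 CPM), and 198 rose and 617 fell in the highest (from 96.3 CPM).

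Along the chromosomes, 2 of 1069 stretches of 10 neighbouring tested genes had medians well below the next. The lowest (chr17:68035519-68601389, GRCh38) had a median log2 fold change of -0.46 with 8 of 10 genes lower, where 10.3% of all genes fell. Within it SLC16A6, a transporter of the monocarboxylate family, had 15, 14.8 and 16.3 CPM (pLVX) and 6.76, 6.71 and 6.13 CPM (CD146) (log2 fold change -1.23 with SE 0.11 and adjusted p = 9.86e-14). PRKAR1A, a regulatory subunit of protein kinase A, had 351, 358 and 380.2 CPM (pLVX) and 217, 207 and 219 CPM (CD146) (log2 fold change -0.76 with SE 0.03 and adjusted p = 9.24e-25). FAM20A, a pseudokinase of the secretory pathway, had 19, 18.2 and 19.8 CPM (pLVX) and 3.15, 3.32 and 3.06 CPM (CD146) (log2 fold change -2.58 with SE 0.12 and adjusted p = 1.39e-24). In these 3 genes no library of one group reached the other group. WIPI1 (-0.51), an autophagy protein, and the sulfatase ARSG (-0.65) also fell. FAM20A overlaps PRKAR1A, and ARSG overlaps SLC16A6 and WIPI1, so reads of these pairs may be split. The second stretch (chr16:56451490-57083531) had a median of -0.44 with 6 of 10 genes lower, and 5 of the 6 are the metallothioneins described above. The next lowest stretch had a median of -0.17 and the highest, on chromosome 1, of 0.21.

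**Figure D4:**
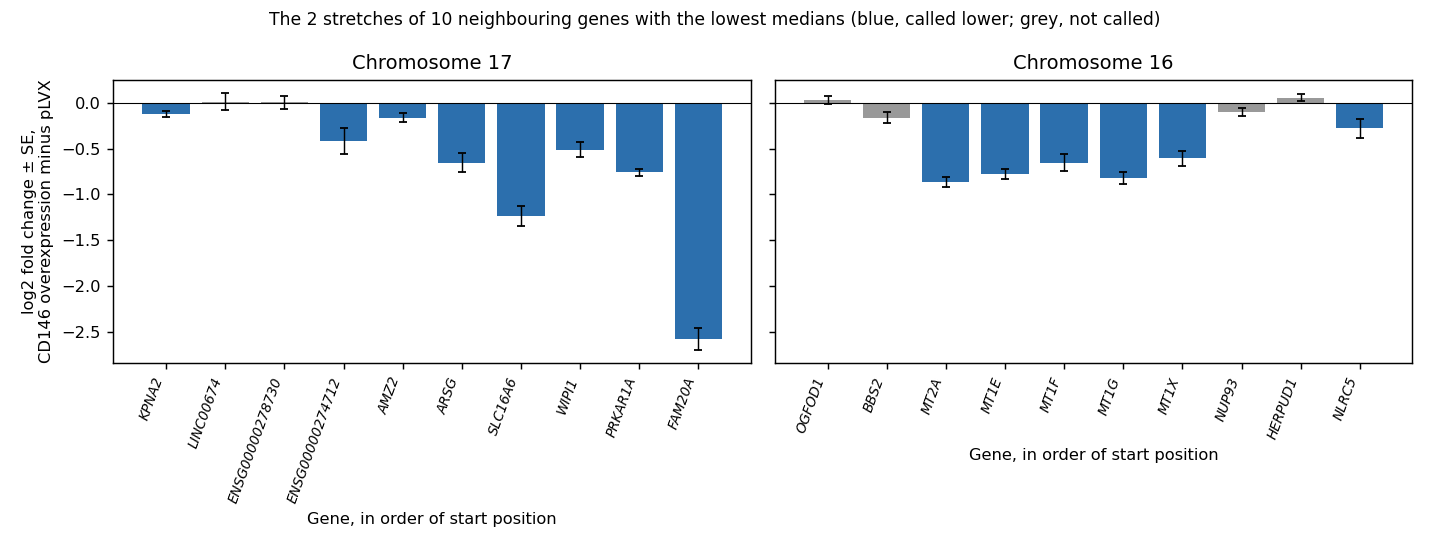
log2 fold change with its standard error for the 10 genes, in order of position, of the 2 stretches with the lowest medians, on chromosome 17 (left) and chromosome 16 (right). Blue bars are called lower and grey bars are not called, and the bars on chromosome 17 run from about 0 to -2.58 for FAM20A while those on chromosome 16 are low only for 5 metallothioneins and, less so, NLRC5.

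The effect was set against that in libraries labelled Hep3B, taken there as control shRNA minus CD146 shRNA so that both contrasts run from lower to higher CD146. The line, the vector, the medium and the way CD146 was changed all differ between the 2 experiments and cannot be told apart in this comparison. The libraries labelled Hep3B summed to 41.5 to 118 CPM over the 10 hepatocyte markers, against 52404 to 59582 CPM in HepG2, and APOA1, TTR, SERPINA1, FGB, TF and AFP had 3 counts or fewer in each of their control libraries. These levels go against a hepatocyte-derived line, so the identity of these libraries is in doubt and they are named by their label only. In a fit of all 12 libraries the effects differed for 6866 of 18870 genes (36.4%). Of the 30 largest changes in HepG2 16 could also be tested in the libraries labelled Hep3B, and for 15 of them the effects differed, TEX19 being the exception (difference 0.28, adjusted p = 0.0889). These genes were chosen by the size of their effect in HepG2, which the difference uses again. Most were therefore likely to differ by this choice alone, and the count of 15 does not measure how far the experiments differ. In the libraries labelled Hep3B 8 of the 16 were called in the opposite direction, 3 in the same direction and 5 not at all. AREG, which rose in HepG2, had an effect of -1.94 in them (adjusted p = 2.34e-05, difference 4.05), DKK1 one of -0.90 (difference 3.33) and PTPRJ, which fell in HepG2, one of 1.52 (difference -3.91). SLC16A6 was lower with more CD146 in both, by 1.23 on the log2 scale in HepG2 and with an effect of -2.23 in the libraries labelled Hep3B.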

How the data were processed

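Poly(A)-selected RNA of HepG2 cells was sequenced in 6 libraries, 3 per group. Raw read counts per Ensembl gene were deposited by the authors without normalisation, and the authors deposited FPKM as well, which divide counts by gene length and depth. The submitters' processing notes list HISAT2 2.2.1, HTSeq 0.6.1 and cutadapt 1.9.1, while the build, the annotation and the strand setting are not given in the sources used here. Symbols were found for 61804 of 61806 gene IDs and positions, from GENCODE version 29 (GRCh38), for 58254.

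Counts of the 6 libraries were tested in R 4.3.3 with edgeR 4.0.16 (TMM, filterByExpr, glmQLFit and glmQLFTest, 2-sided, Benjamini-Hochberg adjustment). The difference between lines was an interaction contrast over all 12 libraries. The words rose, fell and changed mark an adjusted p under 0.05. Levels are TMM-scaled CPM, given as mean ± SD of 3 libraries, and SE is the log2 fold change over the square root of F. The biological coefficient of variation was 2.92%. No library was a copy of another, as the chi-square per gene between replicates was 1.74 to 2.30, above sampling noise. On simulated counts 96 of 100 genes changed 1.5-fold and 100 of 100 changed 2-fold were recovered, with 7 unchanged genes called among 15329 genes in all. The simulation gave all genes the same spread and changed only well-counted genes, as many up as down and far fewer than were called here. It therefore does not speak to genes at low counts, to uneven spread or to the choice of scaling.

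The genes named are MCAM and the largest changes by ratio (15 each way) and by CPM difference (8 each way). These changes were taken among called protein-coding genes of at least 5 CPM in the higher group whose groups did not overlap. Also named are the first 3 members of each of 59 lists, the called members of smallest adjusted p in each list, and the genes of the extreme stretches. In all 57 other list members were chosen after their values were seen. The members and lists were chosen with earlier results of these data known. Of all genes so chosen 107 overlap another gene in the annotation, which may split or add reads, and are uncertain in this respect. Alternatives were DESeq2 1.42.0, limma 3.58.1 on log2(FPKM + 1) and log2(FPKM + 0.1), other scalings, no filter, all 12 libraries, the replicate number as a block and leaving out each library. Some genes and 1 list are not reported here.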

Additional observations from a re-analysis of the deposited data

Results flagged for a closer look

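For 15 of the largest changes in HepG2 the effect of higher CD146 differed from that in libraries labelled Hep3B, by the interaction contrast of edgeR over all 12 libraries at an adjusted p under 0.05. Each difference below is the log2 effect in HepG2 minus that in those libraries. It was positive for AREG (4.05), DKK1 (3.33), DSC3 (2.75), BAZ2B (2.45), LAMA3 (2.2), ANXA3 (2.17), PAM (1.91), PSD3 (1.89), DDX60 (1.72), NTN4 (1.69) and SLC16A6 (1.0), and negative for PTPRJ (-3.91), TNFSF4 (-1.7), COTL1 (-0.85) and ADGRL1 (-0.74). The positive value of SLC16A6 comes from a larger fall in the libraries labelled Hep3B than in HepG2. The 15 genes were chosen by the size of their effect in HepG2, which is part of each difference. For this reason, and as 36.4% of all genes differed, the differences are given as values only. The line, the vector, the medium and the way CD146 was changed cannot be told apart in them. No group had the 4 libraries needed to look for single libraries that stand apart.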

How the results depend on the processing

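DESeq2 called 1642 genes (694 higher, 948 lower), of which 1639 were among the 3037 of edgeR, and tested 32982 genes. Library totals gave 2756 higher and 711 lower. limma on FPKM gave 491 lower with a pseudocount of 0.1 and 493 with 1. With a library left out 2262 to 2675 genes were called, 1086 to 1279 higher and 1176 to 1403 lower, with fewer libraries in each fit. The replicate block gave 2947 calls, 2903 of them shared, but the numbers do not pair the libraries (correlations of deviations between libraries of the same number -0.042, -0.044 and 0.018). The count of genes that differ between lines was 6322 to 6867 under the alternatives run. No named gene that was called in HepG2 changed sign under the alternatives run, but lists did with library totals. The median of 14 of the 59 lists changed from below to above 0, the endoplasmic reticulum list went from 2 higher and 6 lower to 8 and 1, and the complement list from 3 and 5 to 6 and 3. Depth limits the genes below about 1 CPM, where a count of 3 is worth up to 0.235 CPM.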

Other observations

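Several groups outside the main pathways were described by their counts. Among 16 surface and oncofetal markers used for liver cancer stem cells 6 rose and 6 fell (6 and 3 with library totals). SOX4, a progenitor factor, rose from 8.14 ± 0.482 to 18 ± 0.533 CPM, CD47, which signals to macrophages, rose from 2.77 ± 0.214 to 4.56 ± 0.142 CPM (not called by DESeq2), and EPCAM rose as given above, while DLK1, AFP and the glypican GPC3 (from 2929 ± 66.4 to 2384 ± 37.8 CPM) fell. CD24 also rose (1.5 on the log2 scale), but it has processed copies and is uncertain. IGF2BP1 (-0.01), IGF2BP3 (-0.07) and LIN28B (0.01) were not called. Of 15 genes of IP3 receptors, store-operated entry and calcium pumps 6 fell and 0 rose, and the 3 IP3 receptors ITPR1 (-0.29, not called by limma on FPKM), ITPR2 (-0.18) and ITPR3 (from 134 ± 3.97 to 94.2 ± 2.59 CPM) were all among the falls. With library totals 3 of this list fell and 1 rose. The channel subunit ORAI1 (-0.09) and its sensor STIM1 (0.06) were not called.

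Among secreted angiogenic factors 4 of 10 rose and 2 fell (5 and 1 with library totals, 1 fell by DESeq2 and without CD146 replicate 2 or 3 or pLVX replicate 1 or 3). PDGFC rose from 9.16 ± 1.49 to 13 ± 2.08 CPM (not called by limma on FPKM) and midkine (MDK) rose from 78.5 ± 1.95 to 101 ± 3.21 CPM, while placental growth factor fell (PGF, from 10.4 ± 1.29 to 7.17 ± 0.24 CPM). STAB2, a scavenger receptor of liver sinusoidal endothelium, had 2.43, 2.63 and 2.12 CPM (pLVX) and 0.772, 0.295 and 0.405 CPM (CD146) (log2 fold change -2.26 with SE 0.33 and adjusted p = 2.72e-07), at a low level in both groups. The endothelial markers PECAM1 (4.28 ± 1.28 CPM with pLVX and 4.12 ± 0.305 CPM with CD146) and VWF (1.67 ± 0.298 CPM with pLVX and 1.82 ± 0.193 CPM with CD146) were not called. Enzymes of the urea cycle moved in both directions. CPS1 fell from 107 ± 1.01 to 90.9 ± 1.51 CPM. OTC rose from 5.4 ± 0.72 to 7.3 ± 0.583 CPM (log2 fold change 0.44), at a lower level. ARG1 (-0.03), ASS1 (0.08) and ASL (0.02) were not called. In the list that holds them, which also covers amino acid catabolism, 2 of 22 rose and 4 fell (5 and 2 with library totals). Of all genes 9.55% rose and 10.3% fell. HAL, the histidine ammonia-lyase, fell from 19.6 ± 3.22 to 12.3 ± 0.888 CPM. Of 7 histone genes tested 0 rose (1 with library totals) and 1 fell, and the one that fell, H2AZ1, is not a replication-dependent histone.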
